A study of Mus musculus with 19 samples.

Results

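The genes described here are 36 genes of cardiac excitation and coupling, comprising sodium, potassium, pacemaker and calcium channel subunits, connexins, and the anchors, pumps and membrane proteins that act beside them. They were taken from a list of names, and 5-hydroxymethylcytosine (5-hmC) peaks were counted to a gene when they overlapped its span, from the first to the last base of its curated RefSeq transcripts. All 36 were found among 21000 protein-coding genes, and all 36 entered the fit over 15731 genes of at least 2 kb with a peak in at least 2 lists. The measure is the percent of a gene's span that lies under peaks, which does not depend on the gene's length as a count of peaks does.

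The study profiled 5-hmC by immunoprecipitation of hydroxymethylated DNA and sequencing (hMeDIP) in cardiomyocytes (CMCs) of C57BL/6J mice at 4 points, with 2 samples each: E14.5 embryos, neonatal pups 1 to 2 days old, 2-month-old adults, and adults 1 week after transverse aortic constriction (TAC), in which a narrowed aorta puts the heart under pressure overload. No other treatment or genetic change is given for these groups. The methods give the mice as male, the E14.5 and neonatal cells as coming from digested ventricles and the adult cells from the perfused left ventricle, with a minority of other cells left in the preparations. Adult mice for which no surgery is given, not sham-operated mice, are the group compared with TAC here, so that surgery and pressure load cannot be told apart, and the share of cells of a type cannot be told apart from the share of its DNA copies that carry the mark.

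Ion channels set the cardiac action potential. Sodium channels start it, transient outward and delayed rectifier potassium channels shape and end it, inward rectifiers hold the resting potential, calcium channels couple it to contraction, HCN channels drive pacemaking, and connexins pass it from cell to cell through gap junctions. Many of these genes are known to change their expression between the fetal and the adult heart and in hypertrophy. 5-hmC is made from 5-methylcytosine by TET enzymes and is known to be found along the bodies of transcribed genes.

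The lists held 104215 to 153637 peaks covering 65.1 to 118.6 Mb, with a median width of 501 bp in each, and their score column does not vary, so the strength of a peak and the sequencing depth are unknown. TAC replicate 2 stood apart. A mean of 25.1% of its peaks overlapped a peak of each other list, against 36.1 to 38.5% for the other 7 lists, and within the 36 genes 24.4% of the TAC peaks overlapped a peak of the other TAC list, against 45.0 to 51.1% at the other points. Genes that define CMCs were covered on average at 25.2 to 33.3% in the E14.5 and neonatal samples and at 10.5 to 16.9% in the adult and TAC samples (8 genes, 7 of them with a peak in 7 of the 8 lists and 6 in TAC replicate 1, *Pln* at 0 throughout), fibroblast genes at 0.426 to 3.21% (7 genes, *Col3a1* and *Tcf21* at 0), endothelial genes at 4.51 to 11.9% (6 genes) and atrial or conduction genes at 5.91 to 19.4% (6 genes, *Sln* at 0). Their part in the results below was not tested.

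Sequences under peaks are shown for the places on which the results turn, 5′ to 3′ on the gene's strand, from the GRCm38 (mm10) genome, with each CpG, the dinucleotide in which the mark is mostly set, in capitals. The first set marks places that carried peaks in both samples at some points only. These are the centre of the *Kcnj2* coding sequence (chr11:111072277-111072576), covered in no E14.5 list and in all 6 later lists, a stretch of the *Kcnj2* intron (chr11:111069396-111069695) covered in the neonatal lists only, the *Kcna5* coding exon (chr6:126533586-126533885), covered whole in both E14.5 lists and in part in neonatal replicate 1, an intronic stretch of *Gja1* (chr10:56383629-56383847) covered in the E14.5 and neonatal lists only, the end of intron 2 with most of exon 3 of *Hcn2* (chr10:79726002-79726301, labelled exon 3), covered in both adult lists and TAC replicate 1, and intron 2 of *Hcn4* (chr9:58845138-58845437), covered in the adult lists only.
Kcnj2 coding exon: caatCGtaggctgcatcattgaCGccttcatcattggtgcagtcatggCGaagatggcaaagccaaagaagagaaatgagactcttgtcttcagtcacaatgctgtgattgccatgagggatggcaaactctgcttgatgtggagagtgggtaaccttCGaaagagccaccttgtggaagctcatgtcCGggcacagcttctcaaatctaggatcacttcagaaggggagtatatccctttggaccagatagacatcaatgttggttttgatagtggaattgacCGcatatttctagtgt
Kcnj2 intron 1: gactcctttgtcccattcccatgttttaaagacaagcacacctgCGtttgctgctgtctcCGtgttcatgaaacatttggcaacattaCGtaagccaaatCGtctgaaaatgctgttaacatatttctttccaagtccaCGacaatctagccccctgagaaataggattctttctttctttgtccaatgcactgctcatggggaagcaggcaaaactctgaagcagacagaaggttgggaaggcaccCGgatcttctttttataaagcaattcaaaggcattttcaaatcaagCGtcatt
Kcna5 coding exon: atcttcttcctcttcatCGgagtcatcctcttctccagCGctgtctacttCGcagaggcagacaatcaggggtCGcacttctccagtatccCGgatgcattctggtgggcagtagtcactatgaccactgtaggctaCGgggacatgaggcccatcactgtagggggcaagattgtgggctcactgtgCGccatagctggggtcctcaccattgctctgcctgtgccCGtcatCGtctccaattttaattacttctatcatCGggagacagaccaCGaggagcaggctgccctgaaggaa
Gja1 intron 1: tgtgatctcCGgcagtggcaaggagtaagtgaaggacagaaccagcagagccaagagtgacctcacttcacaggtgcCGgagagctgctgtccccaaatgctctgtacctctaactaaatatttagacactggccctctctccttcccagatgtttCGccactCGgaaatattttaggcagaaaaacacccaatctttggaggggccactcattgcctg
Hcn2 exon 3: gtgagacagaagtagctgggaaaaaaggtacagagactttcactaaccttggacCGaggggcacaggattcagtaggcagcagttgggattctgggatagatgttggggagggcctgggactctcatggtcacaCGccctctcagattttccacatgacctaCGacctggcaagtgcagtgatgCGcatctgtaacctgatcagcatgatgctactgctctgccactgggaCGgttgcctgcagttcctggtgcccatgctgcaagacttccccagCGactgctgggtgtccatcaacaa
Hcn4 intron 2: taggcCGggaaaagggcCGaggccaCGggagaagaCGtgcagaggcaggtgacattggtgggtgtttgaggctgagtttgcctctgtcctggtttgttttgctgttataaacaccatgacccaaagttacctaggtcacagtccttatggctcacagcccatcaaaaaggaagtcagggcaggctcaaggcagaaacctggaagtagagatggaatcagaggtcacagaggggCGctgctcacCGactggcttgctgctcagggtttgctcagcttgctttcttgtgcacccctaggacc
These stretches hold 1.83 to 3.67 CpGs per 100 bases, against 0.851 over the autosomes. The highest of them is the *Kcna5* exon with 11 CpGs in 300 bases.

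The second set marks places covered in both samples at all 4 points. Of 2028 such intervals of the genome 5 lay in the 36 genes, among them intervals in *Abcc9*, *Kcnh2*, *Kcnq1* and *Cacnb2*. The longer ones of these 4 are shown by up to 300 bases about their centres: intron 24 of *Abcc9* (chr6:142634971-142635270) and intron 5 of *Kcnh2* (chr5:24330633-24330836).
Abcc9 intron 24: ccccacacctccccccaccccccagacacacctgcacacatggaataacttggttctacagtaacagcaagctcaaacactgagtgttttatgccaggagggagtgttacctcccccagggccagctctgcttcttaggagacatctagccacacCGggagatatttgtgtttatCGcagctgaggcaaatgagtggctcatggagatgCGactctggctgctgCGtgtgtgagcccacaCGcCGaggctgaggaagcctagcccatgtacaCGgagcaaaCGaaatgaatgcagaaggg
Kcnh2 intron 5: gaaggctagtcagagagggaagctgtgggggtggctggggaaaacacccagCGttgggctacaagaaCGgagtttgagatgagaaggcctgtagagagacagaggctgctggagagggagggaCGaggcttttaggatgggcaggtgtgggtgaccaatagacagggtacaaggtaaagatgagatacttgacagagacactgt
The *Abcc9* stretch holds 2.67 CpGs per 100 bases and the *Kcnh2* stretch 1.47, and 22.3% of the former and 0% of the latter is soft-masked as repeat in the reference.

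**Figure D1:**
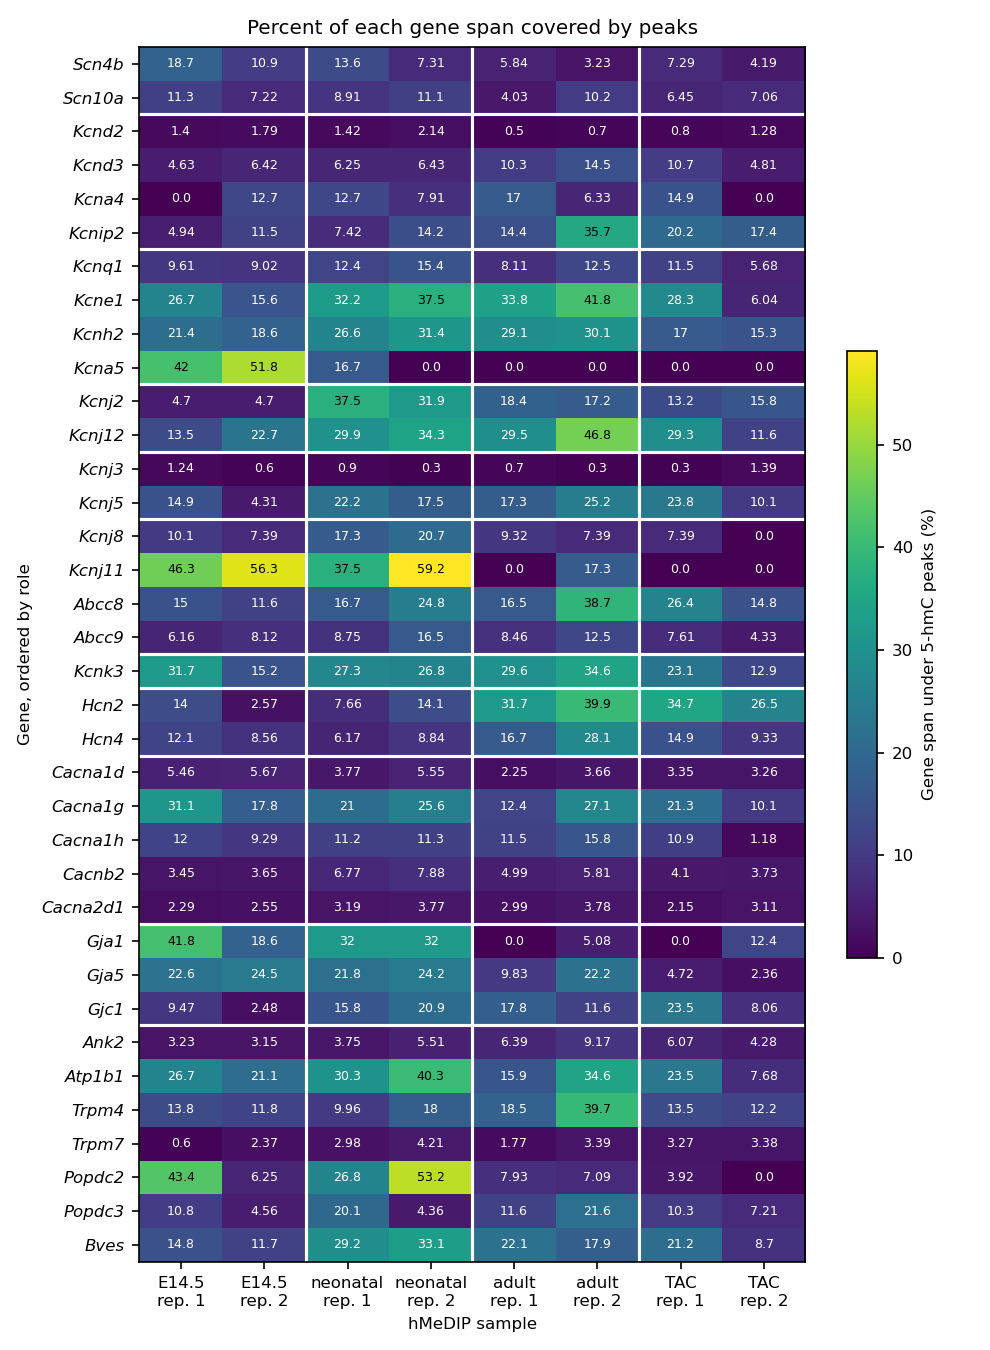
Percent of each gene's span under 5-hmC peaks (colour and printed value) for the 36 genes (rows, ordered by role, white lines between roles) in the 8 samples (columns). *Kcna5*, *Kcnj11* and *Gja1* reach 41.8 to 59.2% in E14.5 or neonatal samples and 0 in others, whereas *Hcn2* lies at 26.5 to 39.9% in the adult and TAC samples and at 2.57 to 14.1% before.

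The 36 genes were more densely covered than genes of like length at every point. Their mean coverage was 13.7% ± 2.33 (SD, n = 2) in E14.5 cells and 17.6% ± 1.76 in neonatal cells, and 15.3% ± 4.01 in adult cells and 9.80% ± 3.79 after TAC. Genes of the same length classes averaged 5.63%, 7.46%, 7.67% and 5.30%. The ratio of the former to the latter was 2.42 ± 0.295, 2.36 ± 0.0654, 1.97 ± 0.149 and 1.83 ± 0.1498. Per sample, 22 to 29 of the 36 genes lay above the mean of their own length class (genes ranked by length and split into 10 classes of equal size). The names were chosen with results of these data known, so the excess is a description without a test. It was smaller when base pairs were summed over all members, so that long genes weigh more, with 5.85 to 8.26% of the summed span of the members covered at the 4 points, or at most 1.33 times the share in all genes. The 62 other channel genes of the pathway averaged 4.84 to 10.8% per sample, and the 36 genes 7.12 to 18.8%.

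**Figure D2:**
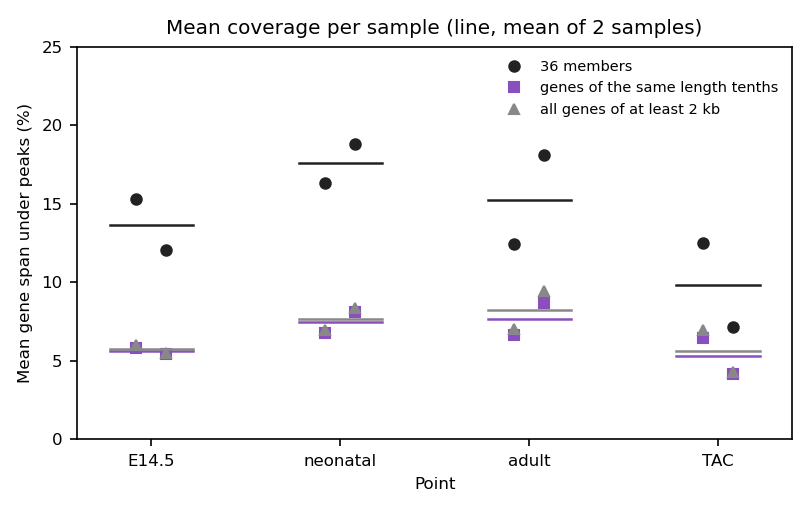
Mean percent of the gene span under peaks (y axis) at the 4 points (x axis) for the 36 genes (circles), all genes of the same length classes (squares) and all genes of at least 2 kb (triangles), 1 symbol per sample and a line for the mean of 2 samples. The 36 genes lie above both other sets in each sample, from 7.12% in TAC replicate 2 to 18.8% in neonatal replicate 2.

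The members differed widely among themselves. The most covered over the 8 samples were *Kcne1*, the accessory subunit of the slow delayed rectifier, at a mean of 27.7%, *Kcnj12*, an inward rectifier, at 27.2%, and *Kcnj11*, the pore of the ATP-sensitive potassium channel, at 27.1%. The least covered were *Kcnj3*, a subunit of the acetylcholine-gated potassium channel, at 0.725%, *Kcnd2*, a transient outward channel, at 1.26%, and *Trpm7*, a cation channel with a kinase domain, at 2.74%. *Kcnj3* and *Kcnd2* are long genes, of 162176 and 514460 bp. *Kcnj3* was covered at 1.24 and 0.618% in the E14.5 samples and 0.927 and 0.309% in the neonatal ones, with 0.704 and 0.309% in adult samples and 0.309 and 1.39% after TAC, so that its points overlapped throughout. *Trpm7* was at 0.591 and 2.37%, 2.98 and 4.21%, 1.77 and 3.39%, and 3.27 and 3.38% in the same order. *Kcnj3*, *Kcnd2*, *Trpm7* and *Cacna2d1* had 0.128 to 0.526 times the mean coverage of their length class, and *Kcnj12* had 4.38 times that mean.

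No member changed over the 4 points by the moderated F test of limma with Benjamini-Hochberg adjustment over 15731 genes, against 1.46% of genes called. At an unadjusted p of up to 0.05 there were 5 members, against 11.2% of all genes. An exact permutation test, which ran through every way to split the 8 samples into pairs, gave 5 members an unadjusted p of up to 0.05, against 7.76% of all genes. Its smallest possible p is 0.00952, so that after adjustment over all genes it could call a gene only if very many shared that p, and its count of 0 genes called (lowest adjusted p of 0.561) says little. Called members were likewise 0 from E14.5 to neonatal (background 0%), 0 from neonatal to adult (0.934%), 0 from E14.5 to adult (1.21%) and 0 from adult to TAC (0.559%), where 3, 4, 7 and 2 members had an unadjusted limma p of up to 0.05, against 6.54, 8.95, 15.8 and 6.59% of all genes. Of the 61 other channel genes fitted none was called over the 4 points, and 4 had an unadjusted p of up to 0.05. With 2 samples a point, only large and even differences can pass, and the differences below are given by their values and by whether the replicates of 2 points overlap.

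From E14.5 to neonatal, 16 of the 36 genes lay higher in both neonatal than in both E14.5 samples, against 26.2% of all genes, and 1 lay lower, against 6.6%. From neonatal to adult 8 lay higher (16.6% of genes) and 10 lower (21.9%). From adult to TAC 1 lay higher (6.11%) and 14 lower (24.2%). From E14.5 to adult 18 lay higher (29.4%) and 7 lower (18.3%). Among the 62 other channel genes, the counts of higher and lower were 17 and 9, 10 and 21, 4 and 18, and 15 and 23 in the same order. These splits differed after scaling. When each sample was scaled to the same mean over all genes, the members were 8 higher and 9 lower from E14.5 to neonatal, 7 and 17 from neonatal to adult, 6 and 7 from adult to TAC, and 7 and 15 from E14.5 to adult, with 15.4 and 20.7%, 16.1 and 27.5%, 17.0 and 11.6%, and 19.5 and 30.6% of all genes.

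Among the potassium channels that hold the resting potential, *Kcnj2*, which encodes the inward rectifier Kir2.1, had the lowest p over the 4 points. It was covered at 4.70 and 4.70% in the E14.5 samples, 37.5 and 31.9% in neonatal, 18.4 and 17.2% in adult samples and 13.2 and 15.8% after TAC. The equal E14.5 values come from 1 peak of 501 bp in each list, at different places, with no region common to both. Their SD of 0 entered the fit below. Both E14.5 samples lay below all others and both neonatal samples above all others. The gaps between E14.5 and neonatal and between neonatal and adult remained after scaling to the sample mean. The difference from E14.5 to neonatal was 2.64 ± 0.302 (SE) on the log2(percent + 1) scale with an adjusted limma p of 0.0723, and over the 4 points the adjusted p was 0.0552. It passed the threshold with a pseudocount of 0.25, with sample quality weights and, over the points, without the TAC samples. Some alternatives moved it nearer without passing. The adjusted limma p from E14.5 to neonatal was 0.0608 without promoters, 0.0648 without the filter on peaks and 0.0667 without the TAC samples. Several others took *Kcnj2* further from the threshold. From E14.5 to neonatal the adjusted limma p was 0.199 scaled to the sample mean and 0.670 with 10 kb flanks. It was 0.200 with the replicate number as a block and 0.108 with genes of at least 5 kb. The exact permutation p of *Kcnj2*, 0.00952, is the smallest that the divisions into pairs can give.

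The *Kcnj2* gene (chr11:111066164-111076825, plus strand) carries its whole coding sequence in its last exon, and this exon differed between the points. No coding base lay under a peak in either E14.5 list. In the neonatal lists 100 and 100% of the coding bases were covered, in the adult lists 97.9 and 100% and in the TAC lists 89.8 and 100%. A region common to both samples lay over this exon at all 3 later points, 1863 bp wide in neonatal, 1595 bp in adult and 1406 bp in TAC cells. Of 18626 genes of at least 2 kb with coding bases, *Kcnj2* was the only one without a covered coding base at E14.5 and with at least 80% covered in all 6 later lists. When only the neonatal and adult lists were required, 5 genes had the pattern. *Kcnj2* was singled out, and the pattern set, after its values were seen, so these counts describe the gene and are no test. The stricter count also requires TAC replicate 2, in which all genes averaged 4.04% of their coding bases. In a fit on coding bases over all genes *Kcnj2* gave an adjusted limma p of 0.112 over the 4 points. Another region, in intron 1 (chr11:111069133-111069959, 827 bp), was common to the neonatal samples and absent from the other 6 lists.

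**Figure D3:**
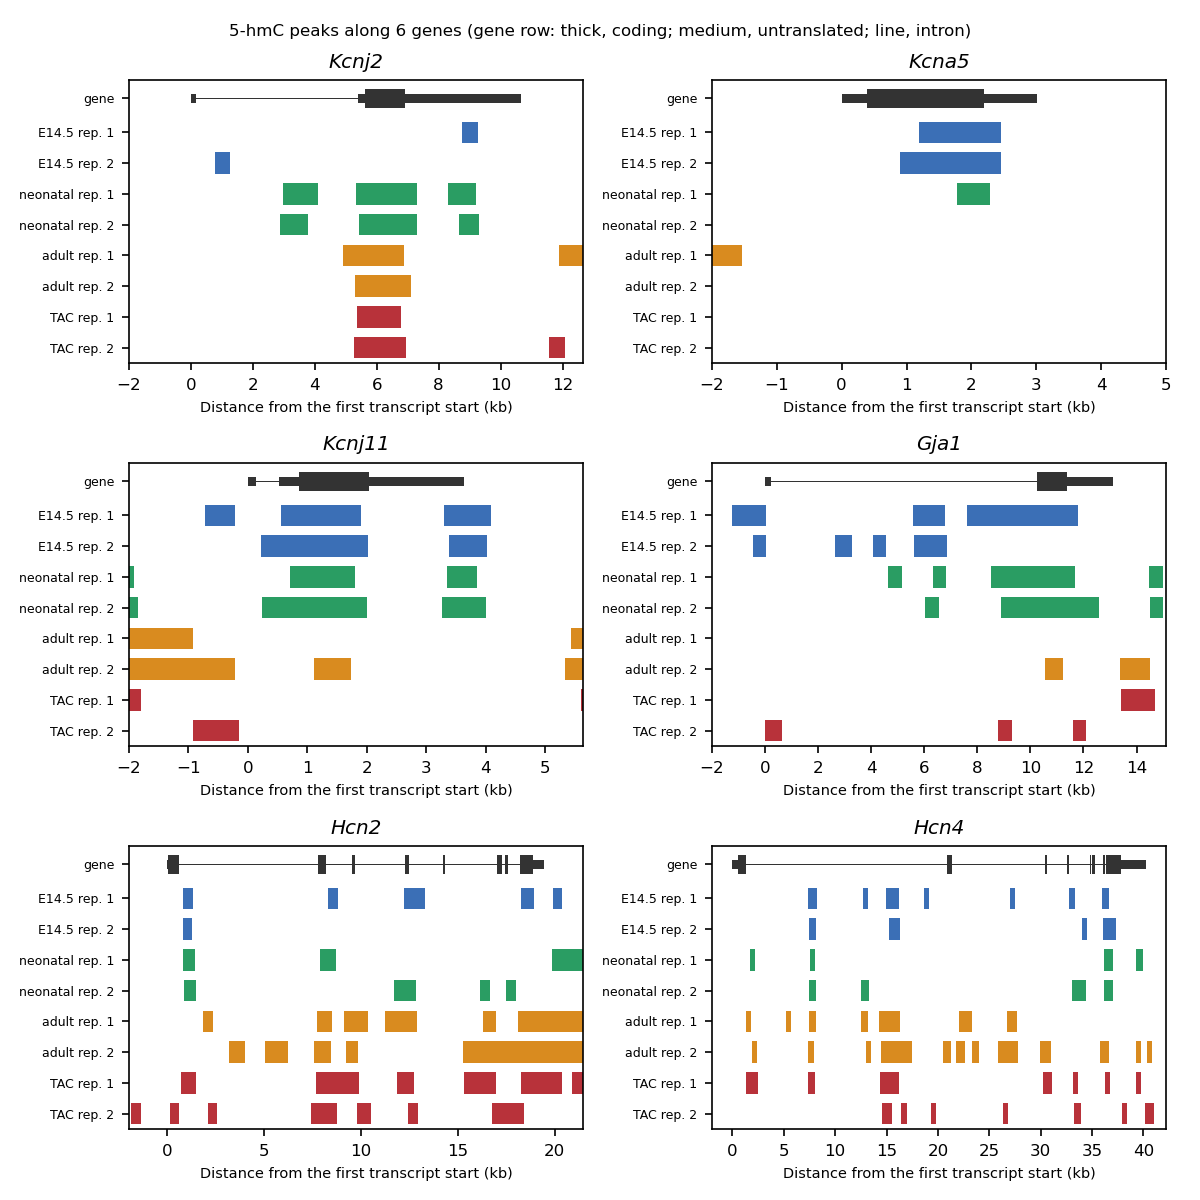
Peaks of the 8 samples (rows, coloured by point) along 6 genes against the distance from the first transcript start in kb, with 2 kb on each side, and the gene in the top row (thick bars, coding exons; medium bars, untranslated exons; line, introns). The coding exon of *Kcnj2* lies under peaks in the 6 later lists and in neither E14.5 list, and the coding exon of *Kcna5* under peaks in the E14.5 lists and in part in 1 neonatal list.

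*Kcnj12*, the related inward rectifier Kir2.2, was covered at 13.5 and 22.7% in the E14.5 samples and 29.9 and 34.3% in the neonatal ones, with 29.5 and 46.8% in adult samples and 29.3 and 11.6% after TAC. The E14.5 samples lay below the neonatal and adult samples, and both TAC samples below the adult ones, the first of them by little. Neither the gap from E14.5 to neonatal nor that from adult to TAC passed the test (adjusted limma p of 0.913 and 0.779). Both were lost after scaling to the sample mean, and the gap from E14.5 to adult remained. *Kcnj5*, which forms the acetylcholine-gated channel with *Kcnj3*, was also higher in both neonatal than in both E14.5 samples, a gap that was lost after scaling.

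The subunits of the ATP-sensitive potassium channel, which opens when energy is short, lie in pairs in the genome. *Kcnj11*, the pore Kir6.2, lies 3.76 kb from *Abcc8*, its sulfonylurea receptor, on chromosome 7, and *Kcnj8*, the pore Kir6.1, lies 16.2 kb from *Abcc9* on chromosome 6. *Kcnj11* was covered at 46.3 and 56.3% at E14.5 and 37.5 and 59.2% in neonatal samples, but at 0 and 17.3% in adult samples and 0 and 0% after TAC. *Abcc8* was at 15.0 and 11.6%, 16.7 and 24.8%, 16.5 and 38.7%, and 26.4 and 14.8%. The pore gene was thus higher in each E14.5 and neonatal sample than in any later sample, while its neighbour had no E14.5 sample above an adult one. The difference of *Kcnj11* from neonatal to adult was -3.49 ± 1.29 (SE, log2 scale) with an adjusted limma p of 0.512. It was -1.40 without adult replicate 1, and -0.07 when the span was widened by 10 kb on each side. The receptor genes *Abcc8* and *Abcc9* and the pore *Kcnj8* were each higher in both neonatal than in both E14.5 samples, and *Kcnj8*, at 10.1 and 7.39%, 17.3 and 20.7%, 9.32 and 7.39%, and 7.39 and 0%, was lower again in both adult samples. These gaps of *Abcc8* and *Abcc9* were lost after scaling to the sample mean, and those of *Kcnj8* remained. A region of *Kcnj11* within 1 kb of a transcript start (chr7:46098967-46100044 in neonatal cells, 1078 bp) was common to both samples at E14.5 and neonatal and held 4.36 CpGs per 100 bases.

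Among the delayed rectifiers, which repolarise the cell, *Kcna5* was covered most at E14.5. This gene (chr6:126532551-126535555, minus strand) encodes Kv1.5, and it was covered at 42.0 and 51.8% in the E14.5 samples, 16.7 and 0% in the neonatal, and 0% in all 4 adult and TAC samples. It was the only member lower in both neonatal than in both E14.5 samples. The difference was -3.50 ± 1.28 (SE, log2 scale) with an adjusted limma p of 0.727, and from E14.5 to adult -5.57 ± 1.28 with an adjusted p of 0.164. The former was -1.43 without neonatal replicate 2 and -0.86 with 10 kb flanks. The region common to the E14.5 samples was 1261 bp wide and centred on the coding exon.

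*Kcne1* was covered at 26.7 and 15.6% in the E14.5 samples and 32.2 and 37.5% in the neonatal ones, with 33.8 and 41.8% in adult samples and 28.3 and 6.04% after TAC. Its TAC samples lay below the adult ones and its E14.5 samples below the neonatal ones, with an adjusted limma p of 0.779 for the former. The difference from adult to TAC rests largely on TAC replicate 2, in which none of its coding bases lay under a peak, against 100% in the other 7 lists. It was -1.43 on the log2 scale, and -0.40 without that sample. *Kcnh2*, the rapid delayed rectifier, was at 21.4 and 18.6%, 26.6 and 31.4%, 29.1 and 30.1%, and 17.0 and 15.3%, and thus higher in both neonatal and both adult samples than in any E14.5 or TAC sample (exact permutation p of 0.0286, adjusted 0.561). After scaling to the sample mean, *Kcnh2* kept its gap from E14.5 to neonatal but not those from E14.5 to adult and from adult to TAC. *Kcnq1*, its slow counterpart, ranged from 5.68 to 15.4%. It shares 83437 bp with the antisense gene *Kcnq1ot1*, and peaks there cannot be assigned to either strand. The same holds for *Kcnd3*, *Abcc9*, *Cacna1d*, *Gja5* and *Ank2*, which share at least 1066 bp each with a gene on the opposite strand.

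The transient outward current, which makes the early notch of the action potential, is carried in part by *Kcnd2* and *Kcnd3* with the subunit *Kcnip2*. *Kcnip2* was covered at 4.94 and 11.5% in the E14.5 samples and 7.42 and 14.2% in the neonatal ones, with 14.4 and 35.7% in adult samples and 20.2 and 17.4% after TAC. *Kcnd3* was at 4.63 and 6.42%, 6.25 and 6.43%, 10.3 and 14.48%, and 10.7 and 4.81%. Both genes were higher in the adult samples than in all 4 earlier ones, and adult replicate 2 was the highest in each. After scaling to the sample mean, *Kcnd3* kept both gaps and *Kcnip2* kept that from neonatal but not that from E14.5 to adult. *Kcnd3* held 10 of the 47 adult common regions in members that no E14.5 or neonatal peak touched, more than any other member, and all of these lay in its introns. *Kcnd2* was covered at 1.40 and 1.79%, 1.42 and 2.14%, 0.495 and 0.704%, and 0.821 and 1.28%, so that it was lower in both adult samples than in all others and the only member higher in both TAC than in both adult samples. With coding bases alone the sign of its difference from adult to TAC was the opposite (-1.15 on the log2 scale).

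The pacemaker channels *Hcn2* and *Hcn4* were both higher in the adult. *Hcn2* (chr10:79716634-79736108, plus strand) was covered at 14.0 and 2.57% in the E14.5 samples and 7.66 and 14.1% in the neonatal ones, with 31.7 and 39.9% in adult samples and 34.7 and 26.5% after TAC. All 4 adult and TAC samples lay above all 4 earlier ones. The difference from neonatal to adult was 1.68 ± 0.723 (SE, log2 scale) with an adjusted limma p of 0.586. The widest common region of any member lay over its end (chr10:79734748-79740647 in adult cells, 5900 bp with 289 CpGs), of which 1361 bp belong to *Hcn2* and 4523 bp to the neighbour *Polrmt*. Before that region, *Hcn2* was still covered at 26.5 and 35.3% in adult samples and 2.77 to 15.1% in the 4 earlier ones.

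*Hcn4* was covered at 12.1 and 8.56% in the E14.5 samples and 6.17 and 8.84% in the neonatal ones, with 16.7 and 28.1% in adult samples and 14.9 and 9.33% after TAC. Both adult samples lay above all others. The difference from neonatal to adult was 1.44 ± 0.445 (SE, log2 scale), and its adjusted limma p of 0.432 was the lowest of the members in that comparison. Its introns were covered at 3.30 and 8.42% in neonatal and 19.8 and 29.1% in adult samples, but its coding bases at 20.7 and 20.1% and at 2.08 and 28.1%. A region in intron 2 (chr9:58844958-58845617, 660 bp) was common to the adult samples and absent from the other 6 lists.

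**Figure D4:**
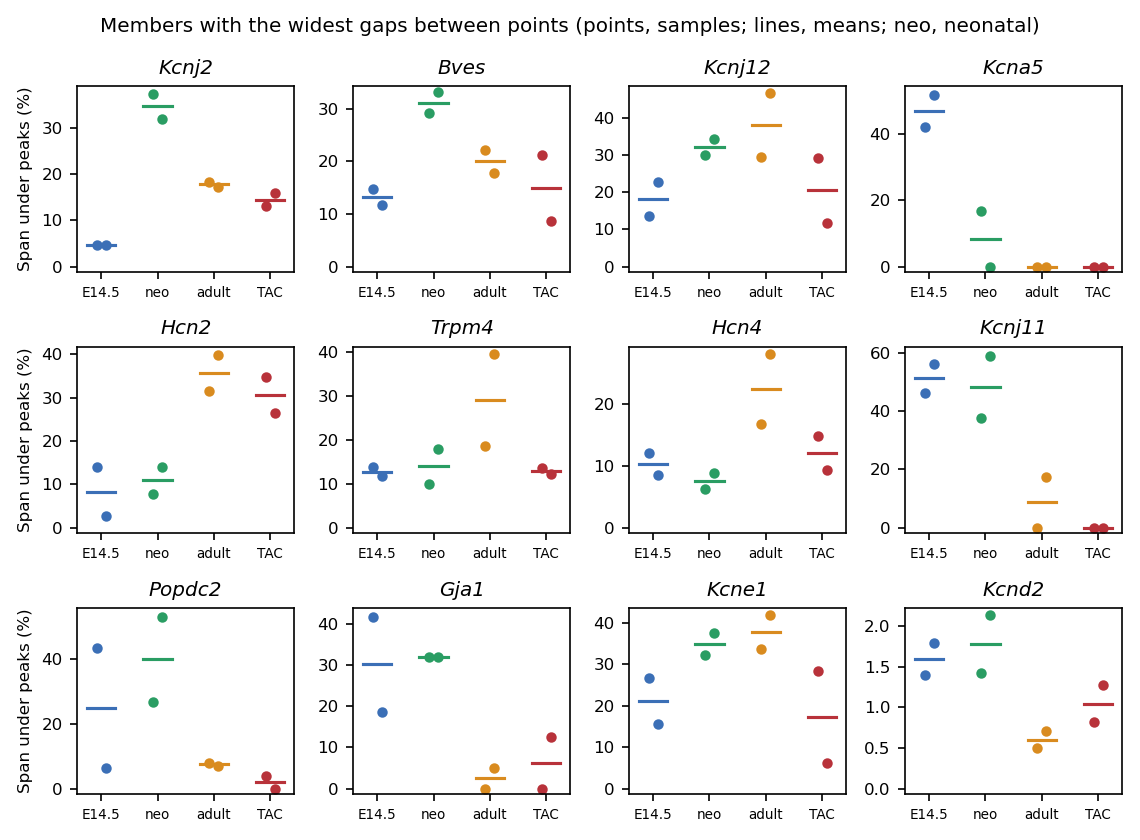
Percent of the gene span under peaks (y axes, each on its own scale) at the 4 points for the 12 genes with the widest gaps between consecutive points, 1 point per sample and a line for the mean of 2 samples. *Kcnj2* peaks in neonatal samples, *Kcna5*, *Kcnj11*, *Popdc2* and *Gja1* lie low in adult samples, and *Hcn4* is highest in adult samples and *Hcn2* higher in adult and TAC samples than before.

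*Scn4b*, a sodium channel beta subunit, was covered at 18.7 and 10.9% in the E14.5 samples and 13.6 and 7.31% in the neonatal ones, with 5.84 and 3.23% in adult samples and 7.29 and 4.19% after TAC. Both adult samples lay below all 4 earlier ones. The 5 calcium channel genes averaged 9.31% in E14.5 cells and 10.001% in neonatal cells, and 9.02% in adult cells and 6.32% after TAC. *Cacna1d*, the Cav1.3 pore, was at 5.46 and 5.67%, 3.77 and 5.55%, 2.25 and 3.66%, and 3.35 and 3.26%, and was lower in both adult samples than in the earlier ones. *Cacnb2*, a beta subunit, was at 3.45 and 3.65%, 6.77 and 7.88%, 4.99 and 5.81%, and 4.10 and 3.73%. Its replicates were close and none of its points overlapped, E14.5 being lowest, then TAC, adult and neonatal. Scaled to the sample mean, *Cacnb2* kept its gaps from E14.5 to neonatal and from neonatal to adult. Those from E14.5 to adult and from adult to TAC were lost. With *Kcnj2* it had the smallest exact permutation p of 0.00952 (adjusted 0.561), and an adjusted limma p over the points of 0.561.

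Connexin genes averaged 19.9% in E14.5 cells and 24.5% in neonatal cells, and 11.1% in adult cells and 8.51% after TAC. *Gja1* (chr10:56377300-56390419, plus strand) encodes connexin 43, the main ventricular connexin, and was covered at 41.8 and 18.6% in the E14.5 samples and 32.0 and 32.0% in the neonatal ones, with 0 and 5.08% in adult samples and 0 and 12.4% after TAC. Each of the 4 later samples lay below each of the 4 earlier ones. The difference from neonatal to adult was -3.74 ± 1.42 (SE, log2 scale) with an adjusted limma p of 0.523. It was -2.44 without adult replicate 1 and -1.34 with 10 kb flanks. On average, the CMC genes given above were also less covered in the adult and TAC samples. All of them but *Pln* lay lower in both adult than in both neonatal samples. Against E14.5, *Myh6*, *Tnnt2* and *Tnni3* lay lower in both adult samples, and *Actn2* and *Myl2* overlapped. *Ttn* (14.2 and 5.75%, then 27.1 and 28.1%) and *Ryr2* (6.06 and 6.05%, then 9.11 and 12.1%) lay higher. The part of the CMC genes in the differences of *Gja1* and *Kcnj11* was not tested. A region of 2823 bp over the coding exon of *Gja1* (chr10:56386173-56388995) was common to the neonatal samples, and no region was common to both adult or both TAC samples. *Gja5*, connexin 40 of the atria and conduction system, was at 22.6 and 24.5%, 21.8 and 24.2%, 9.83 and 22.2%, and 4.72 and 2.36%. Both of its TAC samples lay below all others, with a difference of -1.86 ± 0.489 from adult to TAC and the lowest adjusted limma p of the members there, 0.468. *Gjc1*, connexin 45, ranged from 2.48 to 23.5% and was higher in both neonatal than in both E14.5 samples.

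*Popdc2*, *Popdc3* and *Bves* encode the Popeye proteins, membrane proteins that bind cyclic AMP, and the last 2 lie 17.3 kb apart on chromosome 10. *Bves* was covered at 14.8 and 11.7% in the E14.5 samples and 29.2 and 33.1% in the neonatal ones, with 22.1 and 17.9% in adult samples and 21.2 and 8.70% after TAC. Both neonatal samples lay above all others, but with coding bases alone the difference of *Bves* from E14.5 to neonatal had the opposite sign (-0.35 on the log2 scale). *Popdc2* was at 43.4 and 6.25%, 26.8 and 53.2%, 7.93 and 7.09%, and 3.92 and 0%. Both neonatal samples lay above the adult ones, whereas the E14.5 samples spanned nearly the whole range, and the difference from neonatal to adult was -2.19 ± 1.10 (SE, log2 scale) with an adjusted limma p of 0.656.

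*Trpm4*, a cation channel opened by calcium, was covered at 13.8 and 11.8% in the E14.5 samples and 9.96 and 18.0% in the neonatal ones, with 18.5 and 39.7% in adult samples and 13.5 and 12.2% after TAC. Adult replicate 2 was far above the rest, whereas adult replicate 1 was close to neonatal replicate 2, and the gaps to neonatal and to TAC did not pass the test (adjusted limma p of 0.650 and 0.779). That to neonatal remained after scaling to the sample mean, and that to TAC was lost. *Ank2*, which anchors channels and pumps in the membrane, was at 3.23 and 3.15%, 3.75 and 5.51%, 6.39 and 9.17%, and 6.07 and 4.28%, with both adult samples above all others. Scaled to the sample mean, *Ank2* kept its gaps from E14.5 and from neonatal to adult but not that from adult to TAC. It had 27 common regions in adult cells, against 8 in E14.5 cells, 16 in neonatal cells and 7 after TAC. *Atp1b1*, the beta subunit of the sodium pump, was at 26.7 and 21.1%, 30.3 and 40.3%, 15.9 and 34.6%, and 23.5 and 7.68%, and a region of 1192 bp in its intron 2 (chr1:164452828-164454019) was common at E14.5 and neonatal and touched by no adult or TAC peak.

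Of the 36 genes, 9 carry at least 80% of their coding bases in 1 exon, with *Kcnj12* at 84.3% just inside that limit and *Kcnk3* at 77.0% just outside. On average over these 9, as over the 27 other members, the coding sequence lay under peaks more than the introns in all 8 lists. The mean share of coding bases covered in the 9 was 59.6 and 46.0% in the E14.5 samples and 64.9 and 75.7% in the neonatal ones, with 37.9 and 60.0% in adult samples and 43.4 and 11.1% after TAC. The mean share of intron bases was 12.2 to 28.5% in the E14.5, neonatal and adult samples and 12.7 and 5.58% after TAC. *Kcna5* has no intron and is left out of the latter. All 2212 genes of that form averaged 7.02 to 15.4% of their coding bases in the 7 lists other than TAC replicate 2, where they had 3.55%. The 27 other members had 13.2 to 34.3% of their coding bases and 8.20 to 17.0% of their intron bases covered in those 7 lists, and 8.88 and 7.38% in TAC replicate 2. Over all genes the coding bases were also covered more than the introns, except in TAC replicate 2 (8.44 against 5.85% in E14.5 replicate 1). In TAC replicate 2, *Kcnj2* was the only one of the 9 with any coding base under a peak, so that the mean of the 9 there rests on this gene alone.

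**Figure D5:**
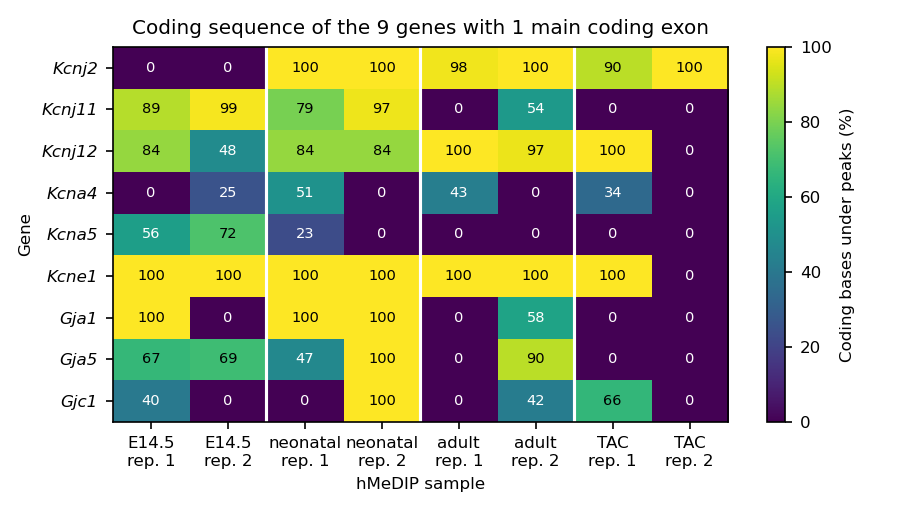
Percent of coding bases under peaks (colour and printed value) for the 9 genes with 1 main coding exon (rows) in the 8 samples (columns). *Kcnj2* is at 0 in both E14.5 samples and at 89.8 to 100% in the later ones, *Kcne1* is at 100% in all but TAC replicate 2, and *Gja1*, *Gja5* and *Kcnj11* are at 0 in adult replicate 1 and both TAC samples.

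Regions common to both samples of a point numbered 162 in the members for E14.5 (in 32 of 36 genes), 218 for neonatal (33), 188 for adult (33) and 85 for TAC cells (25). Over the genome such regions numbered 57562, 66155, 46651 and 22893 in the same order, so that TAC had the fewest there too. Most of those in members were centred in introns, 138, 192, 166 and 80 of them. Of 92 regions common at both E14.5 and neonatal, 15 met no adult or TAC peak (16.3%, and 18.7% over the genome). Of the 188 adult regions, 47 met no E14.5 or neonatal peak (25%, and 20.2% over the genome). *Kcnd3*, *Ank2* and *Cacnb2* held 10, 8 and 5 of these 47, and *Cacnb2* also held 3 of the 15. Within 1 kb of a transcript start, 11 to 20 of the 36 genes had a peak per sample, or 30.6 to 55.6%, against 18.9 to 26.6% of all genes.

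The remaining members are given by their ranges. *Kcna4*, a transient outward channel, lay between 0 and 17.0%, with 0 at E14.5 replicate 1 and TAC replicate 2. *Scn10a*, the sodium channel Nav1.8, ranged from 4.03 to 11.3%, *Kcnk3*, a leak potassium channel, from 12.9 to 34.6%, *Cacna1g* and *Cacna1h*, T-type calcium channels, from 10.1 to 31.1% and from 1.18 to 15.8%, *Cacna2d1*, an accessory calcium channel subunit, from 2.15 to 3.78%, and *Popdc3* from 4.36 to 21.6%. TAC replicate 2 was the lowest sample for *Kcna4* with E14.5 replicate 1, and for *Kcnk3*, *Cacna1g* and *Cacna1h*.

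The TAC samples differed in how many members lay below both adult samples, and 14 members did so in both of them. With TAC replicate 1 alone, 15 members lay below both adult samples and 3 above (31.7 and 19.9% of genes), and with TAC replicate 2 alone 25 lay below and 3 above (44.8 and 17.9%). No member had its highest mean coverage in TAC, against 10.5% of genes, while 7 had it in E14.5 cells, 14 in neonatal cells and 15 in adult cells, against 23.2, 31.4 and 34.9% of genes.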

How the data were processed

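The authors aligned hMeDIP and input reads to mm10 with BWA (0.7.4-r385), removed duplicates with Picard and called peaks against input in each replicate with HOMER in histone mode. The deposited peak lists give start and end positions, used here, and a score that is 1 for every peak, so that no depth or counting interval can be given. Input and sh-control samples were not analysed here.

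Peaks were merged per list, and the percent of each gene span covered was computed over curated RefSeq transcripts on GRCm38 (Python 3.11.15, numpy 2.4.6). The coverage code was checked against bedtools 2.31.1 on made-up lists, and sequences were read with pysam 0.24.0. log2(percent + 1) of 15731 genes was fitted with limma 3.58.1 (trended, robust), with Benjamini-Hochberg adjustment at 0.05, in R 4.3.3. The fit, tested on simulated data, shares 1 spread over the 8 samples, and p-values measure the spread between these samples. Percentages of span, unlike counts of peaks, do not grow with length.

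Values in every sample are given for the 3 largest differences upwards and the 3 largest downwards among members whose replicates do not overlap at consecutive points and for the 3 highest and 3 lowest means. Others given in full were chosen after their values were seen. The members and lists were chosen with earlier results of these data known. The coding-base measure was added after the values were seen. Alternatives changed the pseudocount, filter, scaling, span, weights, replicates and block. The sequence of 1 interval is not reported here.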

Additional observations from a re-analysis of the deposited data

How the results depend on the processing

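The peak lists carry no depth, and 2 samples a point limit every comparison. Of 260 values of 14 named differences under alternatives, 3 changed direction and 2, both of *Kcnj2*, passed the threshold, which no difference passed otherwise. Sizes moved more, with 10 kb flanks for *Kcnj11* (-3.49 to -0.07), *Kcna5* (-3.50 to -0.86), *Gja1* (-3.74 to -1.34) and *Kcnj2* (2.64 to 1.26), and for *Kcnj12* from adult to TAC without TAC replicate 2 (-0.97 to -0.34). With coding bases in place of the span, chosen after seeing the data, *Bves* from E14.5 to neonatal (-0.35), *Hcn4* from neonatal to adult (-1.17) and *Kcnd2* from adult to TAC (-1.15) reversed. The number of members called by limma went from 0 to 1, *Kcnj2*, over the 4 points with a pseudocount of 0.25, with sample quality weights and with the 6 samples other than TAC, and from E14.5 to neonatal and to adult with the first 2 of these. It was 0 to 0 in every comparison when single replicates were left out. With the replicate number as a block 0 members were called in each comparison. Across genes, the deviations of the replicate 1 samples from the mean of their own point correlated at 0.0272 to 0.236 between points. The main fit did not take the replicate numbers as pairs. The 229 genes called over the 4 points became 0 with the block, with genes of at least 5 kb, with 10 kb flanks, with coding bases and without any 1 E14.5, neonatal or adult replicate, and 98 without TAC replicate 2. The causes were not tested.

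Scaled to the sample mean, members without overlap were 8 higher and 9 lower from E14.5 to neonatal, 17 lower from neonatal to adult, 6 higher and 7 lower from adult to TAC, and 7 higher and 15 lower from E14.5 to adult. With 10 kb flanks 0 were lower from E14.5 to neonatal, against 7.05% of all genes. With 1 replicate left out, added after seeing the data, the higher and lower counts were 17 to 23 and 3 to 9 from E14.5 to neonatal, 9 to 15 and 12 to 21 from neonatal to adult, 2 to 5 and 15 to 27 from adult to TAC, and 19 to 23 and 7 to 12 from E14.5 to adult. The fewer samples make overlap rarer by construction. Except for each TAC sample alone, given above, the shares of all genes were not taken for these counts. Whether the members differ from all genes there cannot be said.

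The mean coverage of the members at E14.5 was 16.2% scaled, 10.7% with flanks, 6.07% summed and 10.4% as a median, and in neonatal cells 15.6, 14.3, 8.26 and 15.3%. Summed, it was 8.25% in adult and 5.85% in TAC cells. With single replicates left out it was 12.03 to 15.3%, 16.4 to 18.8%, 12.4 to 18.1% and 7.12 to 12.5%. Regions in members numbered 523, 622, 638 and 592 in either replicate, and 111 in adult and 14 in TAC cells with 50% reciprocal overlap. Leaving out a replicate was not run for common regions, and regions over the genome were not counted under these alternatives.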
